A study of Mus musculus with 26 samples.

Results

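A group of 8 erythroid genes was followed pool by pool in the mouse knee: Alas2, Slc4a1, Epb42, Klf1, Rhag, Ermap, Hemgn and Car2. They were chosen by symbol, as every probe set annotated to 1 of these 8 names alone, and each gene was followed by its brightest probe set over all arrays. This gave 8 genes with 11 probe sets, of 18194 genes with a probe set of their own and 45101 probe sets in all. Slc4a1 had 3 probe sets, Epb42 had 2 and each of the other genes had 1.

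The tissue was the medial compartment of the knee of male C57BL/6 mice. The block held tibial and femoral cartilage, the underlying bone with any osteophytes (outgrowths at the joint margin), meniscus, capsule and synovium. The paper also names ligament among the tissues that the RNA could come from. Surgery was done at 12 weeks of age, either destabilization of the medial meniscus (DMM), in which the ligament that ties the meniscus to the tibia is cut to induce osteoarthritis, or a sham operation. Operated limbs were taken at 2, 4, 8 and 16 weeks, at 14, 16, 20 and 28 weeks of age, and joints of unoperated mice at 12 weeks of age served as time 0. Each array held RNA pooled from 3 mice, and the 26 arrays formed 9 groups of 3 pools, except that DMM at 2 weeks had 2, replicates 2 and 3. The paper left out the other pool of DMM at 2 weeks because its RNA integrity was too low for an array. No group carried a genetic change, and all mice were of 1 strain and sex, so the values speak for young adult males only.

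Red cells are made in bone marrow from progenitors that pass through nucleated erythroblast stages, fill with hemoglobin, lose the nucleus and leave as reticulocytes. The factors GATA1 and KLF1 drive this program, heme is built from a first step run by ALAS2, and a set of membrane proteins gives the cell its shape and carries gas and ions. The knee block includes the bone under the cartilage, whose marrow spaces hold such cells. In bulk tissue, fewer cells of a type and less RNA per cell cannot be told apart.

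The 8 genes moved together across the pools, and genes outside the 8 moved with them. Promoters of the 8 genes are shown because a shared pattern raises the question of shared letters upstream. RefSeq promoters on GRCm38.p6, 250 bases before to 50 after the start, were matched for 6 of the 8 genes, all but Slc4a1 and Car2. The GATA motif was searched as AGATAA or AGATAG, or either with a T as its first letter, on both strands, and a KLF motif as CCNCNCCC on both strands. All 6 promoters held a GATA motif, which 29.8% of 32851 promoters of that length also held. A KLF motif was found in 2 of the 6, Alas2 and Hemgn, against 49.5% of all promoters. The 4 promoters below are those whose only GATA motif lay in the last 100 bases before the start. They lie at chrX:150547167-150547466 on the plus strand (Alas2), chr8:84901732-84902031 on the plus strand (Klf1), chr17:40810899-40811198 on the plus strand (Rhag) and chr4:119189946-119190245 on the minus strand (Ermap). Capitals mark the GATA motif, read here as its reverse complement, and in Alas2 also a run of G-rich letters in which 4 KLF matches lie, 3 of them overlapping.
Alas2: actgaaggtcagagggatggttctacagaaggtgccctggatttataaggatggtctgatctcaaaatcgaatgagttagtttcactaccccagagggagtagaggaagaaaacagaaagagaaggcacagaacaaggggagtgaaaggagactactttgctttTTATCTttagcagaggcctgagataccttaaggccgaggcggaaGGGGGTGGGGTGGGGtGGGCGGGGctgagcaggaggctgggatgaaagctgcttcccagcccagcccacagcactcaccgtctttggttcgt
Klf1: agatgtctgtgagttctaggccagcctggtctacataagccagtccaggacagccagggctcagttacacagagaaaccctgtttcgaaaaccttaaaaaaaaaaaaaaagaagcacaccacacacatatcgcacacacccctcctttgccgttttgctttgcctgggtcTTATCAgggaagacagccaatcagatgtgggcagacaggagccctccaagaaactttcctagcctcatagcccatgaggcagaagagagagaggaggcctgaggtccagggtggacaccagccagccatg
Rhag: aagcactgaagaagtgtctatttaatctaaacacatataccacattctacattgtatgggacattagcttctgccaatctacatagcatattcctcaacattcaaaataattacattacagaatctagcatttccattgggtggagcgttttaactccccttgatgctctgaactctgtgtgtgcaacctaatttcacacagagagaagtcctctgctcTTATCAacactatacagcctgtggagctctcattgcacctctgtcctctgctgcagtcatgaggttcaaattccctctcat
Ermap: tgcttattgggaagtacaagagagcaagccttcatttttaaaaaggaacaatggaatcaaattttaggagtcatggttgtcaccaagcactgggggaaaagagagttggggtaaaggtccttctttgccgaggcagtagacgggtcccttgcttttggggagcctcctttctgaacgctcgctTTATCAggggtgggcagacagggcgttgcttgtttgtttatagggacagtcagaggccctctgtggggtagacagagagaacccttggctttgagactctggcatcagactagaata

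Klf1, Rhag and Ermap shared the letters TTATCA, which began 80, 31 and 67 bases before the start, and Alas2 held TTATCT 86 bases before it. The start is that of the promoter set. For Rhag and Ermap it differed from the outer end of the annotated gene. In Rhag, whose annotated gene begins at chr17:40811099, TTATCA lay inside the gene. In Epb42 the same TTATCT began 226 bases before the start. Hemgn held TGATAA 13 bases before its start and AGATAA at base 29 after it, and its 4 KLF matches overlapped inside 1 run of G. These matches describe the letters of the reference and were not tested for binding in this tissue.

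All 8 genes passed the filter on low values. Alas2, the erythroid enzyme of the first step of heme synthesis, had a mean log2 signal of 12.70 over the 26 arrays and ran from 11.14 to 13.33. Slc4a1, the anion exchanger band 3 of the red cell membrane, had a mean of 14.03 and ran from 13.12 to 14.45. Probe sets differ in brightness for reasons of design, so levels are compared between pools of a gene and not between genes.

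Epb42, a membrane protein that binds band 3, ran from 9.01 to 11.34. Rhag, the Rh-associated glycoprotein, ran from 10.14 to 11.90, and Ermap, an erythroblast membrane protein of the butyrophilin family, from 11.07 to 12.98. The membrane genes therefore differed between the lowest and the highest pool by at least 1.33 on the log2 scale, the range of Slc4a1. Klf1, the erythroid Krüppel-like factor, ran from 10.81 to 12.56, and Hemgn, a nuclear protein of blood cell precursors, from 12.00 to 13.55. Car2, a carbonic anhydrase of red cells that osteoclasts also use to acidify bone, had the smallest spread, from 13.79 to 14.81.

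One pool was the lowest for all 11 probe sets, and it was a sham pool: replicate 3 at 2 weeks. Averaged over the 8 genes after each was centred on its own mean, this pool stood at -1.16 on the log2 scale. The next lowest were DMM at 2 weeks replicate 3 at -0.74, DMM at 4 weeks replicate 2 at -0.61 and DMM at 2 weeks replicate 2 at -0.60. In each of these 4 pools all 8 genes lay below their own mean. The highest pools were sham at 16 weeks replicate 1 at 0.54 and DMM at 16 weeks replicate 3 at 0.44, where all 8 genes lay above it. Low pools thus came from both operations, and the early weeks held the lowest of them.

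**Figure D1:**
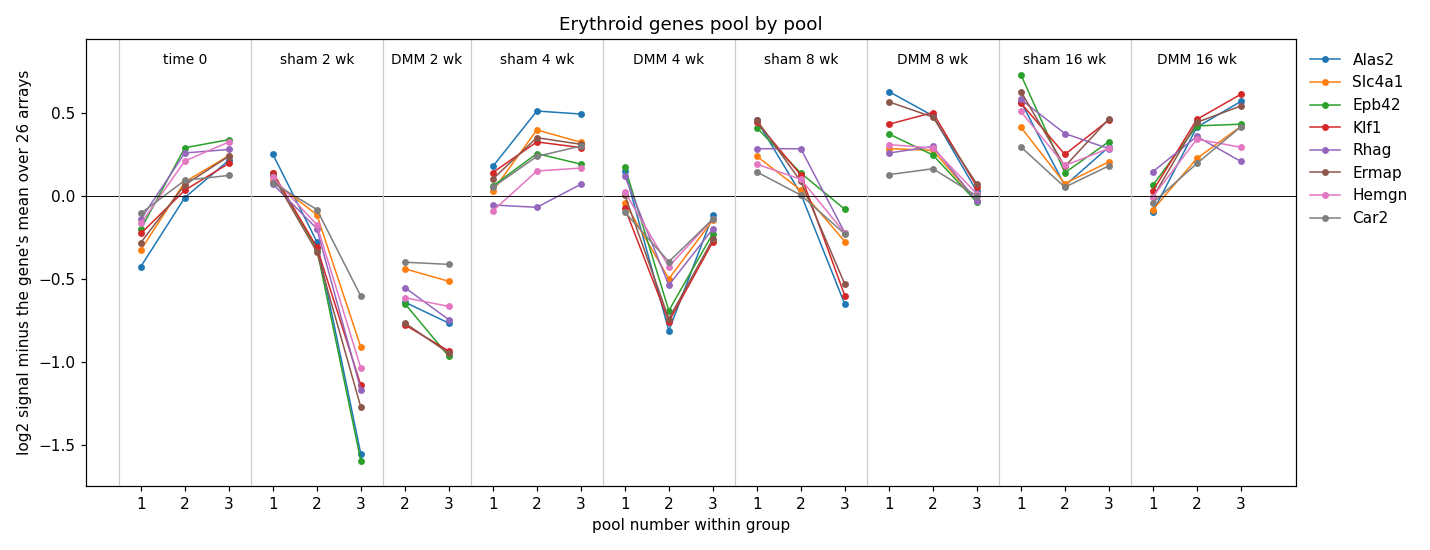
Log2 signal of each of the 8 genes minus its mean over 26 arrays (vertical axis), for every pool, grouped by operation and week (horizontal axis, pool number within the group; each coloured line joins the pools of 1 group for 1 gene). The 8 lines run close together, dip furthest in sham 2 weeks replicate 3, and are low in both DMM pools at 2 weeks.

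The 28 pairs of these genes had Pearson correlations from 0.87 to 0.99 over the 26 arrays, with a median of 0.95. Each gene against the mean of the other 7 gave 0.99 for Ermap, 0.98 for Slc4a1, Klf1 and Hemgn, 0.97 for Epb42, 0.96 for Alas2 and Car2, and 0.94 for Rhag. All points share pools, arrays and normalization, so these values are descriptive. Likeness was also ranked against the mean of all 8, which includes the member itself and so raises its rank. Ermap ranked 1, Alas2 55, Car2 102 and Rhag 186 among 11488 genes. Many genes outside the 8 thus followed that mean more closely than Car2 or Rhag did. Among genes outside the 8, the 10 whose brightest probe sets were most like their mean were Isg20, Ctse, Slc6a20a, Rhd, Tspan33, Ubac1, Trim10, Ppp1r15a, Fam210b and Ift140, with r from 0.993 for Isg20 to 0.987 for Ift140. Rhd encodes a Rh antigen carrier of the red cell membrane.

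Across groups, DMM at 2 weeks had the lowest mean of all 9 groups for every one of the 11 probe sets. By brightest probe set, the highest group mean was that of sham at 4 weeks for Alas2, Slc4a1 and Car2. It was that of sham at 16 weeks for Epb42, Klf1, Rhag, Ermap and Hemgn. For the dimmest probe set of Slc4a1 it was that of sham at 16 weeks, and for the dimmer one of Epb42 that of time 0. When the 9 groups were ordered by mean, the pools of neighbouring groups overlapped for all 8 genes, with 1 exception: both DMM pools at 2 weeks lay below all 3 DMM pools at 4 weeks for Car2, at 13.98 and 13.99 against 13.99 to 14.29. The nearest pools on either side of that gap differed by less than the last digit shown.

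**Figure D2:**
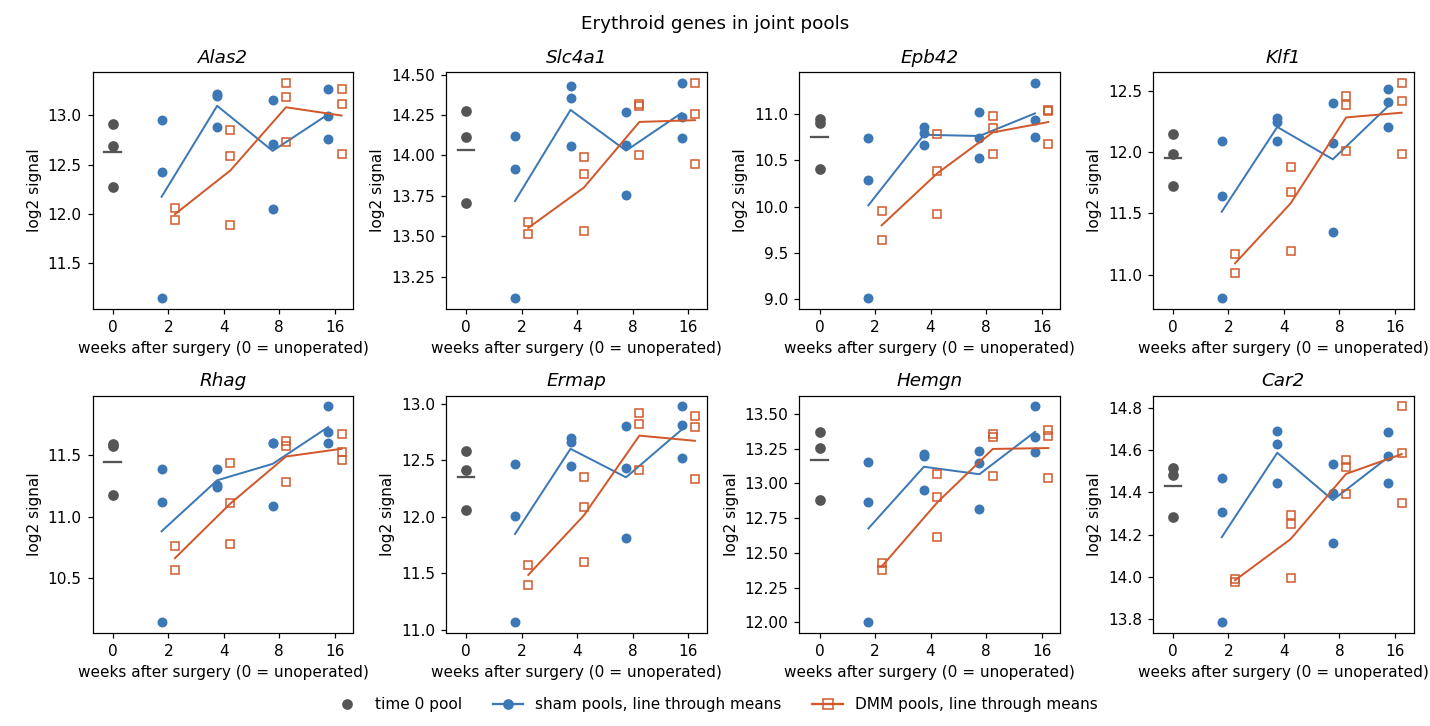
Log2 signal of each gene (vertical axis, scale set per panel) by week of collection (horizontal axis, weeks 0 to 16, evenly spaced), with each point a pool of 3 mice, grey for time 0, filled blue for sham and open orange for DMM; lines join group means. In both operations the means at 2 weeks lie below time 0, and sham means at 4 weeks stand above DMM means in every panel.

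The comparison of DMM with sham at the same week asks what destabilization did beyond the operation and age. At 2 weeks none of the 8 genes was called by limma, at an adjusted p under 0.05 over all 22482 probe sets tested, and none had an unadjusted p under 0.05, where 2.43% of all probe sets were called. All 8 differences lay below 0, with a median of -0.22 against -0.03 over all probe sets tested. Klf1 was the furthest, at -0.42 ± 0.30 (SE, 2 DMM and 3 sham pools) with a 95% interval from -1.04 to 0.20. Its sham pools read 12.09, 11.64 and 10.81 and its DMM pools 11.17 and 11.01. The DMM pools lay inside the sham range, because sham replicate 3 was lower than both. Without that sham pool, Hemgn alone was called.

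At 4 weeks all 8 genes again lay below sham, with a median difference of -0.45 on the log2 scale against -0.01 over all probe sets. None was called by limma, where 19% of all probe sets were called in either direction and 6.68% as lower, and 4 of the 8 had an unadjusted p under 0.05. For 5 of them every DMM pool lay below every sham pool, as it did for 17% of all probe sets. The count of members called by limma was not above the 6.68% of all probe sets called as lower. Car2 was called when sham replicate 1 or DMM replicate 1 was left out, and Slc4a1, Klf1 and Car2 when sham 2 weeks replicate 3 was left out of the fit.

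Car2 came nearest the threshold. Its sham pools read 14.44, 14.63 and 14.69 and its DMM pools 14.29, 13.99 and 14.25. The groups did not overlap, and the difference was -0.41 ± 0.14 (SE, 3 pools each; limma adjusted p = 0.0508), with a 95% interval from -0.71 to -0.11.

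Klf1 read 12.09, 12.28 and 12.24 in sham and 11.88, 11.19 and 11.67 in DMM. These did not overlap either, and DMM replicate 2 was the lowest. The difference was -0.62 ± 0.27 (limma adjusted p = 0.103). Alas2 read 12.88, 13.22 and 13.20 in sham and 12.85, 11.89 and 12.59 in DMM. DMM replicate 1 lay just under the lowest sham pool, and the difference, -0.65 ± 0.35, had the largest size of the 8 and an interval from -1.38 to 0.07.

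Slc4a1 differed by -0.48 ± 0.21 and Ermap by -0.59 ± 0.28, both with pools apart. The dimmest probe set of Slc4a1 (-0.39) had pools that overlapped, and its remaining one (-0.46) had pools apart. Epb42 at -0.42 ± 0.30, Hemgn at -0.26 ± 0.21 and Rhag at -0.19 ± 0.23 had pools that overlapped. So did the dimmer probe set of Epb42, at -0.23. For Rhag the sham pools read 11.26, 11.24 and 11.38 and the DMM pools 11.43, 10.77 and 11.11, so that DMM replicate 1 was the highest of the 6. The genes of this group therefore spread from Rhag, near sham, to Alas2 and Klf1, and they were not tested against each other.

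At 8 weeks all 8 differences lay above 0, with a median of 0.18. None was called by limma or had an unadjusted p under 0.05, and 1 probe set in all was called, 0.00445% of those tested. The differences ran from 0.04 for Epb42 to 0.44 for Alas2, whose interval spanned -0.28 to 1.17. Sham at 8 weeks held a wide range for Alas2, with pools at 13.16, 12.72 and 12.05, beside DMM pools at 13.33, 13.19 and 12.73. At 16 weeks 7 of the 8 lay below 0, with a median of -0.07 and none called or under 0.05 unadjusted, where 0.0623% of all probe sets were called. The largest of these was Rhag at -0.18 (interval -0.65 to 0.29), and that interval held differences of either sign.

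Averaged over the 4 weeks, the DMM difference of the 8 genes ran from -0.19 for Klf1 to -0.10 for Alas2. None was called by limma and none had an unadjusted p under 0.05, against 16.8% of all probe sets called. Whether the DMM difference itself changed with time was tested as an interaction. From 4 to 8 weeks all 8 moved the same way, the DMM difference being lower at 4 weeks by 0.25 to 1.10 on the log2 scale, and 5 had an unadjusted p under 0.05, but none was called (lowest limma adjusted p = 0.108, Car2), where 1.59% of all probe sets were. Without sham 8 weeks replicate 1, Klf1 was called. The difference at 2 weeks against 8 weeks had a median of -0.40 and that at 16 against 8 weeks a median of -0.27, both with no member called or under 0.05 unadjusted and with 0.00445% and 0% of all probe sets called.

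**Figure D3:**
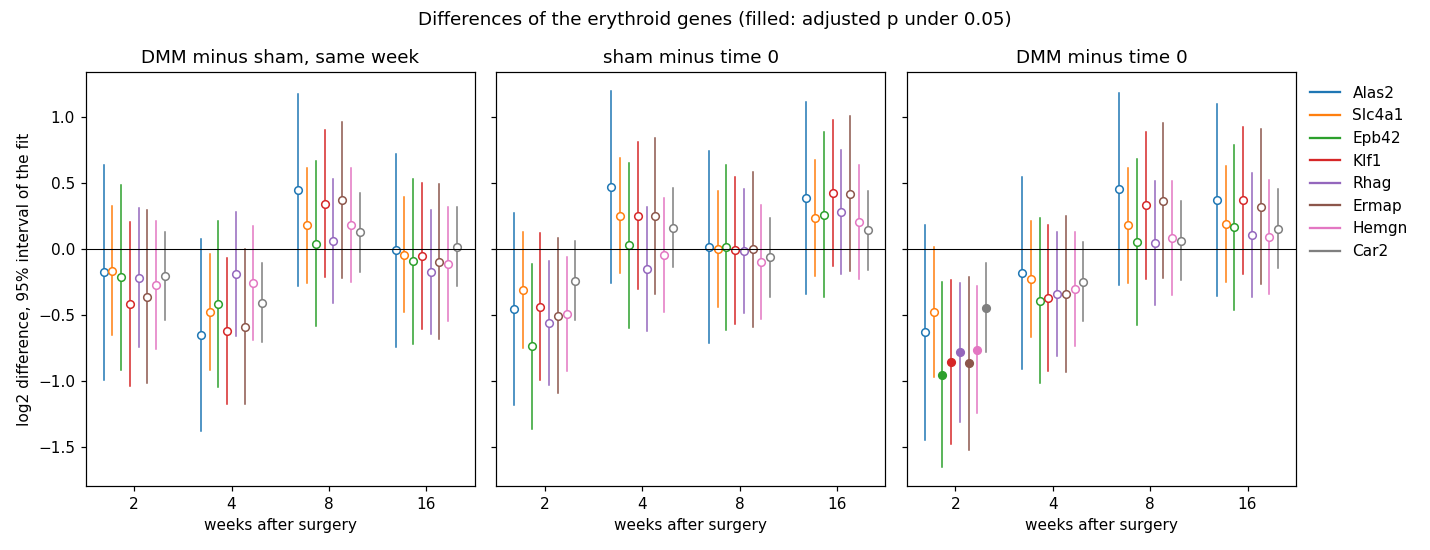
Log2 differences (vertical axis) with 95% intervals from the limma fit for each gene at 2, 4, 8 and 16 weeks (horizontal axis), as DMM minus sham, sham minus time 0 and DMM minus time 0; filled points have an adjusted p under 0.05. Filled points occur in the last panel at 2 weeks, for Epb42, Klf1, Rhag, Ermap, Hemgn and Car2; the last 2 panels share the 3 time 0 pools.

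Against the unoperated joints, 6 of the 8 genes fell in DMM at 2 weeks, where 29.6% of all probe sets were called and 15.2% as lower. For all 8, both DMM pools lay below all 3 time 0 pools, as they did for 31% of all probe sets. The median difference of the 8 was -0.77, against -0.03 over all probe sets. This comparison holds the operation, the destabilization and 2 weeks of age together, which cannot be told apart in it.

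Both nuclear genes fell. Klf1 read 11.72, 11.99 and 12.15 at time 0 and 11.17 and 11.01 in DMM, a fall of 1.81-fold (log2 difference -0.86 ± 0.30 SE, limma adjusted p = 0.0347). Hemgn read 12.88, 13.25 and 13.37 at time 0 and 12.43 and 12.38 in DMM, 1.70-fold lower (adjusted p = 0.0169 by limma). In both, time 0 replicate 1 was the nearest to the DMM pools and still stood clear of them.

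Among the membrane genes, Epb42 went from 10.41, 10.90 and 10.95 to 9.96 and 9.64, which was 1.94-fold lower and the largest change of the 8 (limma adjusted p = 0.0372). Rhag went from 11.17, 11.57 and 11.59 to 10.76 and 10.57 (1.72-fold, adjusted p = 0.0235), and Ermap from 12.06, 12.41 and 12.59 to 11.58 and 11.40 (1.82-fold, adjusted p = 0.0434). Both DMM pools stood below every time 0 pool for each of these genes. Slc4a1 was not called by its brightest probe set, at 13.70, 14.11 and 14.27 against 13.59 and 13.51 (adjusted p = 0.133). Its dimmest probe set was called (-0.72, adjusted p = 0.00625), and the remaining one was not (-0.35, adjusted p = 0.268). The dimmer probe set of Epb42 was called too, at -0.76 (adjusted p = 0.00767).

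Of the enzymes, Car2 fell 1.36-fold, from 14.28, 14.48 and 14.51 to 13.99 and 13.98 (limma adjusted p = 0.0421). Alas2 read 12.28, 12.69 and 12.92 at time 0 and 12.06 and 11.93 in DMM and was not called (-0.63 ± 0.39, adjusted p = 0.238). Its pools did not overlap, but its pools differed more within groups over the series than those of Car2. These 6 calls depended on single pools: none was made without time 0 replicate 2, time 0 replicate 3 or either DMM pool, while all 6 were made without time 0 replicate 1. With no filter on dim probe sets, Rhag and Hemgn alone were called. With the pool number as a block, Klf1, Rhag and Hemgn were called and Epb42, Ermap and Car2 were not; both same-numbered pairs of this comparison correlated in their deviations, at 0.28 and 0.24.

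At later weeks no gene of the 8 was called in DMM against time 0. The median difference was -0.32 at 4 weeks, 0.13 at 8 weeks and 0.18 at 16 weeks. At these weeks 8.17%, 0.743% and 1.73% of all probe sets were called. No member had an unadjusted p under 0.05 at any of the 3 by its brightest probe set. At 4 weeks the dimmest probe set of Slc4a1 (-0.42) and the dimmer one of Epb42 (-0.45) were under 0.05 unadjusted but not called. By brightest probe set, all 8 lay below time 0 at 4 weeks and all 8 above it at 8 and at 16 weeks. The dimmer probe set of Epb42 lay below time 0 at 8 weeks (-0.09) and at 16 weeks (-0.02).

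Sham joints were compared with the same time 0 pools to follow the operation and age without destabilization. At 2 weeks all 8 genes lay below time 0, with a median of -0.47. By brightest probe set 3 had an unadjusted p under 0.05, but none was called by limma, where 1.66% of all probe sets were. The dimmest probe set of Slc4a1 (-0.48) and the dimmer one of Epb42 (-0.57) were also under 0.05 unadjusted and not called. Epb42 was the furthest at -0.74 (interval -1.36 to -0.11), with sham pools at 10.75, 10.29 and 9.01. Sham replicate 1 read close to time 0 and replicate 3 far under it, so this group had the largest SD of all 9 for these genes, with an SD of 0.90 for Epb42 and 0.93 for Alas2. Without replicate 1, Epb42, Rhag and Hemgn were called. At 4, 8 and 16 weeks no member was called by limma or under 0.05 unadjusted, where 1.22%, 0.939% and 5.8% of all probe sets were called. The medians were 0.20, -0.01 and 0.27, and at 16 weeks all 8 lay above time 0 by brightest probe set. There the dimmer probe set of Epb42 stood at -0.09.

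Between sham at 2 and at 16 weeks, that is from 14 to 28 weeks of age, 5 of the 8 genes rose: Epb42, Klf1, Rhag, Ermap and Hemgn. In this comparison 30.6% of all probe sets were called and 15.3% as higher. All 8 had an unadjusted p under 0.05, and the median difference was 0.84 against 0.03 over all probe sets. Rhag went from 11.38, 11.12 and 10.14 to 11.90, 11.69 and 11.60, 1.80-fold higher (limma adjusted p = 0.00791). All 3 late pools lay above all 3 early ones, replicate 3 at 2 weeks being far below the rest.

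Epb42 rose 1.99-fold (limma adjusted p = 0.0167), Ermap 1.89-fold (0.0181), Klf1 1.82-fold (0.0192) and Hemgn 1.62-fold (0.0155). Pools were apart for these 5, as they were, late above early, for 23.9% of all probe sets. The dimmer probe set of Epb42 was called at a smaller 0.48 (limma adjusted p = 0.0492), and its pools overlapped. Alas2 at 0.84 (adjusted p = 0.0735), Slc4a1 at 0.54 (0.0545) and Car2 at 0.38 (0.0501) were not called and had overlapping pools. Slc4a1 was called by both of its other probe sets, at 0.74 (adjusted p = 0.00247) and 0.57 (adjusted p = 0.041). No call was made without sham 2 weeks replicate 3, when the median was 0.42, 1 (Rhag) without sham 16 weeks replicate 1, and 3 (Epb42, Rhag and Hemgn) without sham 16 weeks replicate 3. Without sham 2 weeks replicate 1 all 8 were called, and none was when these 6 arrays were fitted alone.

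The rest of the erythroid program was followed in 6 lists of other genes, whose counts are to be read against the shares of all probe sets called. These shares were 15.2% called as lower and 14.3% as higher in DMM at 2 weeks against time 0, between sham at 2 and 16 weeks 15.3% as higher and 15.3% as lower, and in DMM against sham at 4 weeks 6.68% as lower and 12.4% as higher. In DMM against sham at 2 weeks 0.81% were called as lower, and over the average of the weeks 5.77%. Heme synthesis, the path from ALAS2 to the final insertion of iron by ferrochelatase, had 12 tested genes of 13. In DMM at 2 weeks against time 0, 7 of the 12 fell, Alad (second step) by 0.95 on the log2 scale (adjusted p = 0.031), while Fech (ferrochelatase) at -0.64 (adjusted p = 0.141), Urod at -0.62 (adjusted p = 0.104) and the mitochondrial iron carrier Slc25a37 at -0.49 (adjusted p = 0.113) did not pass. Between sham at 2 and 16 weeks all 12 rose, Alad by 0.89 and Fech by 0.82. In DMM against sham at 4 weeks none of the 12 was called, with a median of -0.47 beside that of the 8 genes at -0.45.

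The regulators had 11 tested genes of 11, and 3 of them fell in DMM against sham at 4 weeks. Nfe2, a factor of red cell and platelet precursors, ran from 11.93 to 12.07 in sham and from 11.48 to 11.72 in DMM (-0.42, limma adjusted p = 0.0162). Myb, a factor of immature progenitors, ran from 12.27 to 12.42 and from 11.86 to 12.09 (-0.41, adjusted p = 0.00598). Lmo2, a bridging partner of GATA1 and TAL1, ran from 12.71 to 12.96 and from 12.18 to 12.50 (-0.51, adjusted p = 0.0108). Sham and DMM pools were apart for all 3. Nfe2 (-0.52, adjusted p = 0.0401) and Myb (-0.54, adjusted p = 0.0178) also fell at 2 weeks against sham, and all 3 over the average of the weeks. These factors are also used by other blood lineages.

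The following regulators were not called at 4 weeks, though their differences were of similar or larger size than those of the called ones. Gata1 was at -0.41 (adjusted p = 0.15), Epor, the erythropoietin receptor, at -0.60 (adjusted p = 0.137), Zfpm1, a GATA1 cofactor, at -0.55 (adjusted p = 0.109), Gfi1b at -0.55 (adjusted p = 0.117) and Tal1 at -0.43 (adjusted p = 0.155) in DMM against sham at 4 weeks. Against time 0, 8 of the 11 fell in DMM at 2 weeks, Gata1 by 0.69 (adjusted p = 0.0237) among them, and between sham at 2 and 16 weeks 10 of the 11 rose, Gata1 by 0.69 (adjusted p = 0.013).

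Of other membrane and skeleton genes, 11 were tested of 15. Against time 0, 5 fell in DMM at 2 weeks and 1 rose, Add2. Rhd fell by 1.10 (adjusted p = 0.0166) and Icam4, an adhesion molecule of red cells, by 1.01 (adjusted p = 0.0154), while Ank1, which anchors band 3 to the skeleton, was at -0.61 (adjusted p = 0.0799) and the potassium channel Kcnn4 at -0.40 (adjusted p = 0.19). Between sham at 2 and 16 weeks 9 rose and 1, again Add2, fell. None of the 11 was called in DMM against sham at 4 weeks.

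Red cell enzymes and maturation genes had 11 tested of 14. In DMM at 2 weeks against time 0, 4 fell, Blvrb, Pklr, Trim10 and Hebp1, and 8 rose from 2 to 16 weeks of sham, including Xpo7 by 0.74 (adjusted p = 0.0186) and Prdx2 by 0.57 (adjusted p = 0.0424). Car1, a carbonic anhydrase of red cells, had the largest difference of this list in DMM against sham at 4 weeks, -0.92 (adjusted p = 0.0655), followed by Bpgm, which sets oxygen release, at -0.77 (adjusted p = 0.104); none of the 11 was called there.

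The iron list held 4 genes. In DMM at 2 weeks against time 0 Tfrc, the transferrin receptor, fell by 0.50 (adjusted p = 0.0392), Tfr2 was at -0.37 (adjusted p = 0.0964), and Steap3, an iron reductase that other cells also make, rose by 1.13 (adjusted p = 0.00512). Tfrc rose by 0.57 (adjusted p = 0.01) from 2 to 16 weeks of sham.

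Globins, the protein chains of hemoglobin, were measured in part. In all, 4 of the 10 listed genes were tested, since 4 had no probe set of their own and 2 were too dim, and globin probe sets can read near-identical copies. Hbb-b2, an adult beta globin, ran from 13.58 to 13.75 in sham and from 13.03 to 13.30 in DMM at 4 weeks and fell by 0.49 (adjusted p = 0.00878). The probe set named for Hba-x, an embryonic alpha-type globin, fell by 0.48 (adjusted p = 0.0363). In DMM at 2 weeks against time 0, however, Hbb-b2 stood at 0.02 (adjusted p = 0.919) and Hba-x at -0.17 (adjusted p = 0.5), and Hba-a2 alone of the 4 fell, by 0.44 (adjusted p = 0.0373). From 2 to 16 weeks of sham Hbb-b2 stood at 0.08 (adjusted p = 0.635), while Hba-a2 and Hbb-y rose. Globin mRNA persists in circulating reticulocytes as well as in marrow; which cells gave the signal was not tested.

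Lists for other cells of the block moved beside these results. Their counts, too, are to be read against the shares given above, such as 6.68% called as lower at 4 weeks. In DMM against sham at 4 weeks, 7 of 8 megakaryocyte and platelet genes fell, 8 of 11 cell cycle genes, 4 of 5 adipocyte genes and 3 of 12 marrow neutrophil genes (Mpo, Camp and Mmp8). Of the others, 1 of 6 macrophage genes fell, and 1 of 8 chondrocyte and 1 of 6 osteoblast genes rose, beside 12.4% of all probe sets called as higher. Pf4, the platelet factor of megakaryocytes, ran from 13.69 to 13.82 in sham and from 13.31 to 13.46 in DMM (-0.34, limma adjusted p = 0.000701) with an SE of 0.05, against 0.14 to 0.35 for the 8 erythroid genes. The mean level of the megakaryocyte list was 11.13 to 11.29 in sham and 10.61 to 10.99 in DMM at that week. Marrow B cell precursor genes, with 8 tested, had no call and a median of -0.39, and skeletal muscle genes, with 11 tested, no call and a median of -0.78.

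In DMM at 2 weeks against time 0, all 8 megakaryocyte, all 11 cell cycle and all 5 adipocyte genes fell, with 3 of 12 neutrophil genes, while 1 of 8 B cell precursor genes fell and 1 rose. The megakaryocyte mean was 10.96 to 10.98 at time 0 and 10.46 to 10.49 in DMM, and the cell cycle mean 11.64 to 11.88 and 11.04 to 11.09. From 2 to 16 weeks of sham, all 8 megakaryocyte and all 11 cell cycle genes rose, none of 12 neutrophil genes was called, and all 8 chondrocyte genes and all 6 osteoblast genes fell. The chondrocyte mean level was 12.01 to 12.68 at 2 weeks and 9.89 to 10.41 at 16 weeks. The part of these other cells in the erythroid differences was not tested.

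**Figure D4:**
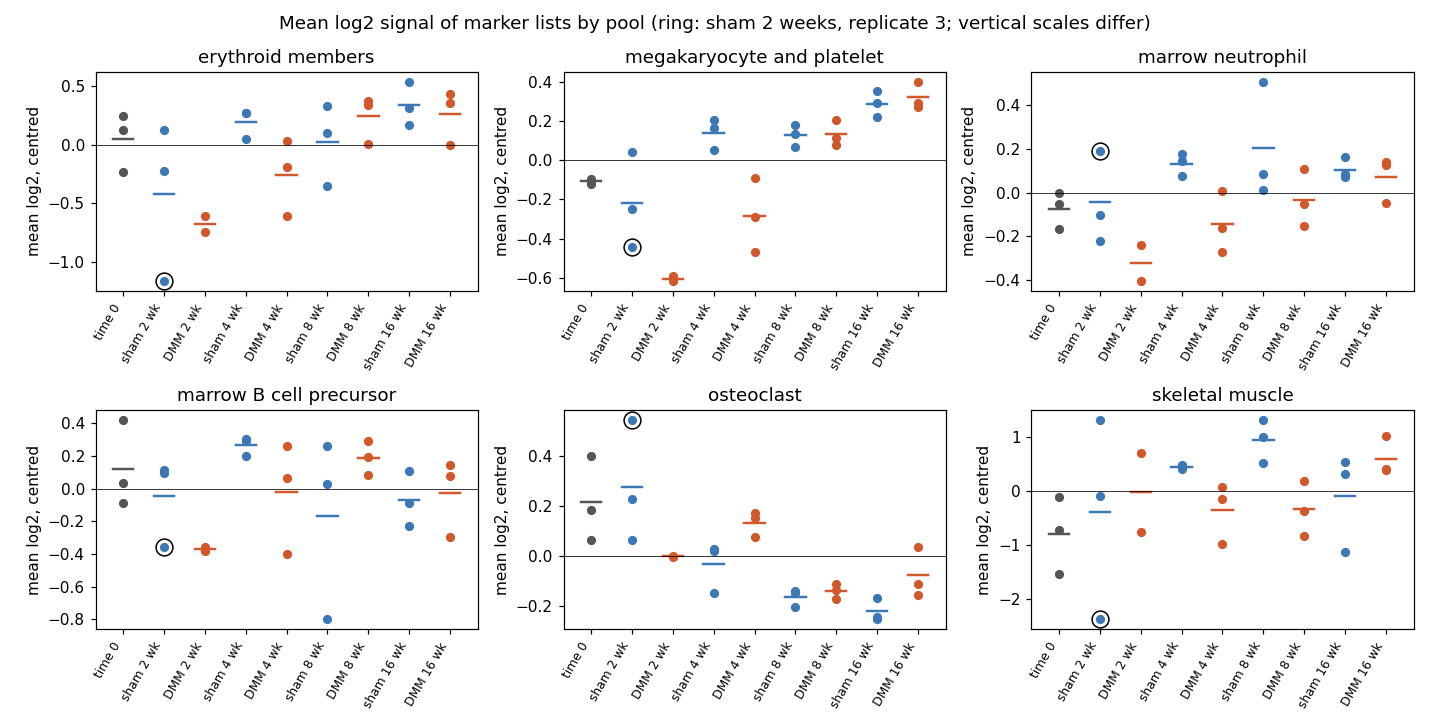
Mean log2 signal of the 8 erythroid genes and of 5 marker lists in each pool, centred on the mean over 26 arrays (vertical axes, scales differ), by group (horizontal axis, grey time 0, blue sham, orange DMM; bars are group means); the ring marks sham 2 weeks replicate 3. That pool is lowest for the erythroid genes and muscle and highest for osteoclast genes.

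The erythroid genes and the neutrophil list did not run together in every pool. Sham 2 weeks replicate 3, lowest in the erythroid genes, had the lowest muscle mean of all 26 pools (9.72), the highest osteoclast mean (10.53) and the highest osteoblast mean (12.52), and the second highest neutrophil mean (14.13). Sham 8 weeks replicate 3, where the 8 genes averaged -0.35 below their means, had the highest neutrophil mean (14.45) and the lowest B cell precursor mean (8.50). Both were low in red cell genes and high in neutrophil genes. The reverse also occurred: time 0 replicate 3 averaged 0.25 and DMM 8 weeks replicate 2 averaged 0.34 above the means of the 8 genes, with neutrophil means of 13.77 and 13.79. In other pools both were low or both were high. DMM 2 weeks replicate 2, at -0.60 for the 8 genes, had the lowest neutrophil mean of all 26 pools (13.54). DMM 2 weeks replicate 3 stood at -0.74 with a neutrophil mean of 13.70. DMM 16 weeks replicate 3 stood at 0.44 with 14.07, and sham 4 weeks replicate 3 at 0.27 with 14.12. A relation over all pools was not tested.

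Car2 is also known from osteoclasts, so its values were set beside theirs. Acp5 and Ctsk, the phosphatase and protease of osteoclasts, fell by 1.00 (limma adjusted p = 4.51e-05) and 1.26 (adjusted p = 3.02e-05) from 2 to 16 weeks of sham, within 5 falls among 8 osteoclast genes, while Car2 stood at 0.38 (adjusted p = 0.0501). Across pools Car2 followed the other 7 erythroid genes at r = 0.96. In DMM against sham at 4 weeks, 1 of 8 osteoclast genes was called, Dcstamp, which rose by 0.40 (adjusted p = 0.025), beside Car2 at -0.41. Where Car2 fell by 0.44, in DMM at 2 weeks against time 0, 2 of 8 osteoclast genes also fell (Mmp9 and Ostm1) and none rose, with a median of -0.23. In DMM against sham at 2 weeks none of the 8 was called, with a median of -0.25 beside Car2 at -0.20.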

How the data were processed

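RNA pools of 3 mice were hybridised by the authors to Affymetrix 3' expression arrays, and the deposited values are log2 signals after systematic variation normalization, 1 column per array. Array medians lay between 7.90 and 7.95. Detection p-values were not used here, and the number of arrays limits the precision. Gene names came from the platform annotation: 34958 probe sets had 1 symbol, 932 several and 9211 none. Probe sets with a mean above 7.93, the median of the array medians, were tested (22482, for 11488 genes).

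A limma fit (version 3.58.1 in R 4.3.3) had 1 mean per group over all 26 arrays, with 17 residual degrees of freedom and Benjamini-Hochberg adjustment over all tested probe sets, at 0.05. It was tested on simulated data. There the noise was independent between probe sets and equally wide in every group, unlike these data. Intervals are 95% intervals of the limma fit. The study compared joints by signal log ratios and filters rather than by this model. Pools were mice randomly grouped, so p-values set a difference against the spread between pools and not between single mice. That spread was shared over all groups, though the groups differed in their SD.

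The 8 genes, the 6 erythroid and 10 cell lists (152 of 174 genes with a probe set) and the tests were chosen with earlier results of these data known. In each list the 3 brightest genes and the 2 with the largest log2 ratio in DMM against sham at 4 weeks and in sham at 16 weeks against time 0 were to be named. Gata1, Blvrb, Pklr, Trim10, Hebp1, Add2 and the genes of the cell lists were named after their values were seen.

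Alternatives were no filter, only the groups compared, array weights, quantile normalization, the pool number as a block, a Gapdh 3' minus 5' or muscle covariate, the mean of a gene's probe sets and leaving out each pool. Leaving sham 2 weeks replicate 3 out of the whole fit was added after seeing the data. No source used here says that a pool number marks shared animals or days. The paper states that it paired replicate pools at random to form its time courses. Of 37 same-numbered pairs, 17 had deviations correlated above 0.1 (from -0.42 to 0.56). Every pair did so in DMM against sham at 8 weeks and in DMM at 16 weeks against time 0, where the block left 0 of the 8 genes called. Both pairs also did in DMM at 2 weeks against time 0, and the block left 3 of 6 genes called.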

Additional observations from a re-analysis of the deposited data

How the results depend on the processing

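No difference changed direction among the genes called, and 10 of the 17 comparisons had 0 of the 8 genes called under every alternative. For DMM at 2 weeks against time 0, 6 genes as reported became 2 with no filter on dim probe sets and 3 with the replicate block (Klf1, Rhag and Hemgn), and leaving out 1 pool gave 0 to 6. With only the groups compared 7 were called, with the muscle covariate 8. For sham at 16 against 2 weeks, 5 genes became 0 with only the groups compared and 8 with array weights or with the muscle covariate, stayed at 5 with the replicate block, and leaving out 1 pool gave 0 to 8. For DMM against sham at 4 weeks, array weights called 4 of the 8 (Slc4a1, Klf1, Ermap and Car2), the mean of a gene's probe sets called 1 (Car2), and the fit without sham 2 weeks replicate 3, an alternative chosen after seeing the data, called 3 (Slc4a1, Klf1 and Car2). Leaving out 1 of the compared pools gave 0 to 1 there, so with that added fit the range was 0 to 3. For sham at 2 weeks against time 0, array weights called 5 and the muscle covariate 3, and leaving out 1 pool gave 0 to 3. For DMM at 4 weeks against time 0 these gave 4 and 1. For the DMM difference at 4 against 8 weeks both gave 5, and leaving out 1 pool gave 0 to 1. For DMM against sham at 2 weeks leaving out 1 pool gave 0 to 1. The cause of these changes was not tested. The replicate block changed no other count of called genes among the 8.

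Each group holds 2 or 3 pools, and leaving out 1 pool moved calls as given above. Where a pool is left out of DMM at 2 weeks, the single pool that remains is assumed to vary like the other groups.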
